A study of Mus musculus with 6 samples.

Results

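The 10 genes described here encode the coiled-coil-helix proteins CHCHD10 and CHCHD2, the import receptor CHCHD4, subunits of the mitochondrial contact site and cristae organizing system (MICOS), and the fusion machinery with its inner membrane protease OMA1. They were taken by name from a deposited table of 55385 genes: Chchd10, Chchd2, Chchd3, Chchd4, Chchd6, Immt, Opa1, Mfn1, Mfn2 and Oma1. Each name matched 1 row, and all 10 had a mean of at least 1 FPKM (mapped fragments scaled by transcript length and by library size). Expression was measured by RNA sequencing in mouse Neuro2A (N2A) cells, a neuroblastoma line labelled neuroblast. One group was transfected with the small interfering RNA si-circCpsf6 (n = 3), directed at a circular RNA named for the gene Cpsf6, and the other with si-NC (n = 3). Both siRNAs were given at 100 nM with the same lipid reagent, and no genetic change is labelled in either group. Nothing in the labels says whether replicates are separate cultures, and every p-value rests on the variation among these 6 libraries, part of which may be technical. The set was chosen by function and also selected on the FPKM values of Chchd10, which were higher in si-circCpsf6, so its values in this comparison are a description and carry no test.

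Cristae are the folds of the inner mitochondrial membrane that hold the respiratory chain. MICOS sits at the narrow junctions where cristae meet the inner boundary membrane, and its core subunit MIC60, encoded by Immt, binds the peripheral subunits MIC19 (Chchd3) and MIC25 (Chchd6). Fusion of the outer membrane depends on the GTPases MFN1 and MFN2, and fusion of the inner membrane depends on the GTPase OPA1, which also keeps crista junctions tight. OMA1 is a stress-activated protease that cleaves OPA1 and also cleaves DELE1, which relays mitochondrial stress to the kinase HRI (Eif2ak1) and to the transcription factor ATF4. In neurons these genes are known for inherited disease: OPA1 for optic atrophy, MFN2 for axonal neuropathy, and human CHCHD10 for motor neuron disease and myopathy.

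Sequence is shown for the genes that moved most, Chchd10 and Opa1, whose promoters are printed from RefSeq on GRCm38.p6 (250 bases before to 50 bases after the start). Capitals mark every match, on either strand, to 7 short motifs: the core of the C/EBP-ATF composite element bound by ATF4 and its partners (TGATGNAA), the NRF1 core (GCGCATGC), an ETS site (CCGGAAG), a YY1 site (AAGATGGC), the CCAAT box (CCAAT), the CACGTG E-box and the GC box (GGGGCGG). Promoters of 9 members were in the table, 11 in all.

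Chchd10 promoter, chr10:75932880-75933179, plus strand:
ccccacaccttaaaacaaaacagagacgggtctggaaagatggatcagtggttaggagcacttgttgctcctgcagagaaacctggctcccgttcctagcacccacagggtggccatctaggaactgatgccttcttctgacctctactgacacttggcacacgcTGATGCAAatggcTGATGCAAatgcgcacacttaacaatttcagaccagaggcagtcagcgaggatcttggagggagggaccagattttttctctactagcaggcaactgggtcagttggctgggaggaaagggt

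Opa1 promoter, chr16:29579084-29579383, plus strand:
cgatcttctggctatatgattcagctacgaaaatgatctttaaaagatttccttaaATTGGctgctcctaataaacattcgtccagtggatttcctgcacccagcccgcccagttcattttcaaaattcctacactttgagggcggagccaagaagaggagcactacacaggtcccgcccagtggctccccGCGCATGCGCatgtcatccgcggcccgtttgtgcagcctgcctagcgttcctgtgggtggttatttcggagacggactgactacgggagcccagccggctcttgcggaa

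The Chchd10 promoter held TGATGNAA as a tandem pair, with first bases at -85 and -72 relative to the start, and none of the other motifs. One or more copies stood in 3.97% of all 32851 promoters of this length, and 2 or more in 0.0700%. Chchd10 was the only 1 of the 9 members with the motif. Earlier results on these values had shown ATF4 targets to be higher, so the match is no independent support. The Opa1 promoter held the NRF1 core, the site of a regulator of nuclear genes for mitochondria, as overlapping matches on both strands at -59 and -57. That core stood in 2.71% of all promoters, with 2 or more matches in 1.09%, and Opa1 was the only member with it. Opa1 also had a CCAAT box, as did Chchd3, Chchd6, Immt and Mfn1, against 37.4% of all promoters. A GC box stood in Chchd4, Mfn1 and Oma1 (23.2% of all promoters), an ETS site in Chchd3, Immt and Mfn1 (8.86%), the E-box in Chchd3 (7.15%) and the YY1 site in no member (2.75%). A match is a string of letters and was not measured as a bound site.

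Across the series, 12671 to 13080 genes reached 1 FPKM in a library. Reads could not be recovered from FPKM (no more than 29.1% of low values lay within 0.1 of a whole read), and the depth is unknown. Mitochondrially encoded protein-coding genes took 16.4% to 18.5% of summed FPKM in si-circCpsf6 and 15.0% to 20.6% in si-NC. All 10 markers listed for neuroblasts and sympathoadrenal cells had a mean of at least 1 FPKM, and they summed to 637 to 684 FPKM in si-circCpsf6 and 755 to 942 FPKM in si-NC. Most of the sum was Tubb3, at 379.84 to 407.58 FPKM in si-circCpsf6 and 443.59 to 591.95 FPKM in si-NC, while the means of Elavl4, Gata3 and Stmn2 were higher in si-circCpsf6 (23.9, 8.51 and 38.5 FPKM) than in si-NC (14.4, 6.64 and 32.1 FPKM). The part of this lower marker sum in the results below was not tested. Because Chchd10 is abundant in muscle, muscle markers were also read: 6 of 7 were under 1 FPKM on average, Myod1 was listed at 0 in all libraries, and Myh3 made up most of their sum of 47.7 to 61.8 FPKM in si-circCpsf6 and 58.6 to 65.4 FPKM in si-NC. Fibroblast, macrophage, epithelial and glial marker lists summed to at most 8.10 FPKM in a si-circCpsf6 library and 10.2 FPKM in a si-NC library.

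Chchd10, a small protein of the intermembrane space that pairs with CHCHD2 (ENSMUSG00000049422, chr10:75933130-75937747, GRCm38), was the most abundant of the 10 genes in si-circCpsf6 and the fourth in si-NC. It read 105.63, 141.85 and 83.2 FPKM in si-circCpsf6 replicates 1 to 3, against 33.47, 33.29 and 14.44 FPKM in si-NC replicates 1 to 3. Every si-circCpsf6 value lay above every si-NC value, and si-NC replicate 3 was the lowest of all. The means were 110 ± 29.6 FPKM in si-circCpsf6 and 27.1 ± 10.9 FPKM in si-NC (SD, n = 3 each), a 4.07-fold ratio, and the log2 fold change on log2(FPKM + 1) was 2.05. Without si-NC replicate 3 it was 1.66. Of all tested genes, 2.57% had a mean at or above that of Chchd10 in si-circCpsf6, and 13.3% did in si-NC. Its libraries were uneven: the within-group SD on the log2 scale was 0.54, a value met or passed by 6.08% of tested genes, against a median of 0.22.

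Chchd10 lies in part opposite Mmp11, a matrix metalloproteinase gene on the other strand, and no source used here says whether counting used strand. The pair share 155 exonic bases, 9.84% of the exonic bases of Chchd10. Mmp11 read 10.57, 15.26 and 11.02 FPKM in si-circCpsf6 and 8.79, 15.69 and 7.5 FPKM in si-NC, so its groups overlapped (log2 fold change 0.23, limma adjusted p = 0.670). Its values stayed several times below those of Chchd10 in si-circCpsf6. In si-NC they were nearer to those of Chchd10, which were 33.47, 33.29 and 14.44 FPKM. Gm867, whose end overlaps Chchd10 by 25 exonic bases on the other strand, read 0.49, 0.39 and 0.73 FPKM in si-circCpsf6 and 0.21, 0.07 and 0 FPKM in si-NC. Vpreb3, a pre-B cell gene 5310 bases downstream, averaged 0.92 ± 0.30 FPKM in si-circCpsf6 and 0.31 ± 0.18 FPKM in si-NC. Both lay under the mean of 1 FPKM needed for testing, and in both every si-circCpsf6 value was above every si-NC value. Of all tested genes 12.8% had their groups apart in this direction, and no such share was taken for genes under that level. On the other side Smarcb1, a chromatin remodelling subunit 11513 bases away, averaged 14.7 ± 2.84 FPKM in si-circCpsf6 and 12.8 ± 1.06 FPKM in si-NC (limma adjusted p = 0.587). Within 50 kb the other genes, Derl3, Gm16221, Gm5134 and Gm16219, had means of at most 0.32 FPKM in either group.

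**Figure D1:**
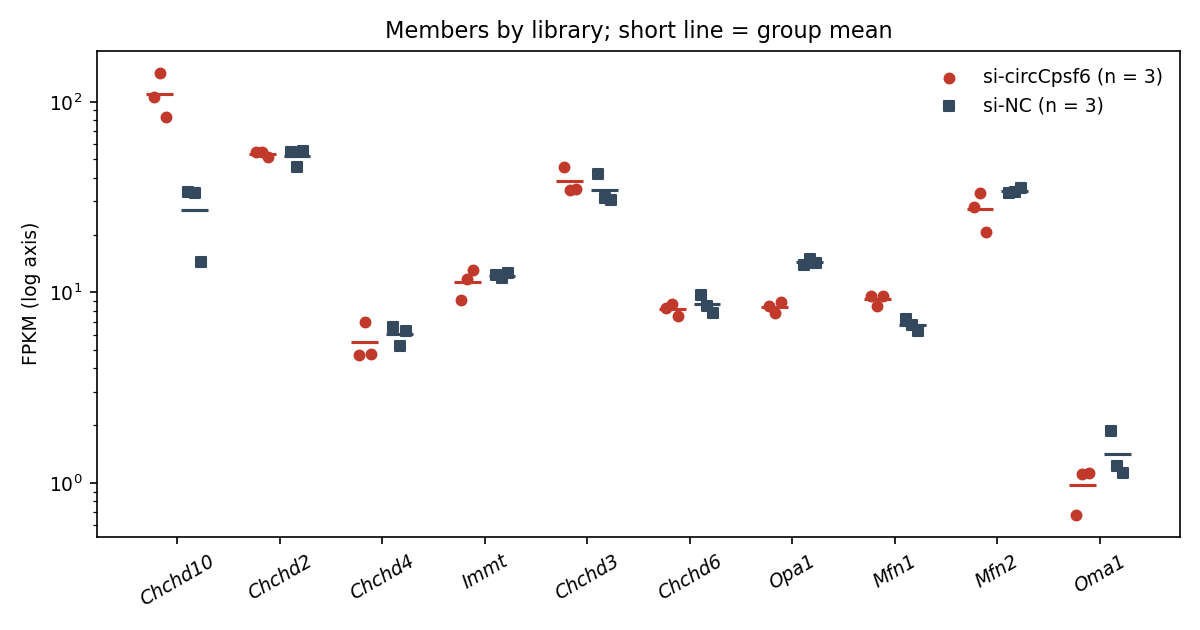
FPKM of the 10 genes on a log axis, with 1 point per library (circles si-circCpsf6, squares si-NC) and a short line at each group mean. Chchd10 lies at 83.2 to 141.85 FPKM in si-circCpsf6 and 14.44 to 33.47 FPKM in si-NC, and Opa1 and Mfn1 are the other genes whose groups do not overlap.

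Chchd2, the closest relative of Chchd10 among these genes (chr5:129881156-129887470), read 54.27, 54.7 and 51.09 FPKM in si-circCpsf6 and 54.67, 45.56 and 54.91 FPKM in si-NC. The groups overlapped, and the log2 fold change was 0.05 with a 95% confidence interval of -0.25 to 0.35 (limma adjusted p = 0.870). Within a library the FPKM of Chchd10 divided by that of Chchd2 was 1.95, 2.59 and 1.63 in si-circCpsf6 and 0.612, 0.731 and 0.263 in si-NC. Chchd10 was thus above Chchd2 in each si-circCpsf6 library and below it in each si-NC library. The ratio is unaffected by library scaling but rests on the gene that was picked for its higher level, and carries no test. Chchd2 has an annotated pseudogene, Chchd2-ps, at 1.14 ± 0.49 FPKM in si-circCpsf6 and 2.00 ± 0.41 FPKM in si-NC, and reads of the pair could be shared. Phkg1, which overlaps Chchd2 on the same strand without a shared exon, averaged 3.00 ± 1.28 FPKM in si-circCpsf6 and 1.98 ± 0.69 FPKM in si-NC (limma adjusted p = 0.479). The other genes that overlap a member were Gm14540 and Gm42895 (Chchd3), Gm43903 (Chchd6), Gm44771 and Gm17825 (Immt) and Gm13156 (Mfn2), none above 1.91 FPKM in any library.

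Chchd4, the human MIA40 homologue that folds cysteine-rich proteins on entry to the intermembrane space (chr6:91462172-91473546), was low. It read 4.71, 7 and 4.77 FPKM in si-circCpsf6 and 6.6, 5.25 and 6.28 FPKM in si-NC. The groups overlapped (log2 fold change -0.13, 95% confidence interval -0.54 to 0.28, limma adjusted p = 0.724).

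None of the 3 MICOS genes passed the test. Immt, the core subunit (chr6:71831331-71877388), read 9.14, 11.8 and 13.04 FPKM in si-circCpsf6 and 12.3, 11.89 and 12.56 FPKM in si-NC, with a log2 fold change of -0.12 (95% confidence interval -0.47 to 0.23, limma adjusted p = 0.710). The si-circCpsf6 values spread around the narrow si-NC range, with replicates 1 and 2 below it and replicate 3 above it. Chchd3 (chr6:32790976-33060260) averaged 38.4 ± 6.29 FPKM in si-circCpsf6 and 34.5 ± 6.10 FPKM in si-NC, and Chchd6 (chr6:89383146-89595652) averaged 8.18 ± 0.58 FPKM in si-circCpsf6 and 8.64 ± 0.94 FPKM in si-NC. Their log2 fold changes were 0.15 (-0.26 to 0.56) and -0.07 (-0.38 to 0.24), and their limma adjusted p values were 0.679 and 0.815. Chchd3 was highest in replicate 1 of both groups, at 45.62 FPKM in si-circCpsf6 and 41.56 FPKM in si-NC. Per length, Chchd6 stood at 0.217 ± 0.035 of Chchd3 in si-circCpsf6 and 0.252 ± 0.020 in si-NC (two-sided exact permutation p = 0.2, where 0.1 is the smallest that 3 against 3 can give).

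Opa1, the inner membrane fusion GTPase (ENSMUSG00000038084, chr16:29579334-29654884), fell in si-circCpsf6. It read 8.47, 7.75 and 8.86 FPKM in si-circCpsf6, against 13.96, 14.92 and 14.18 FPKM in si-NC. All 3 si-circCpsf6 values lay below all 3 si-NC values, with a gap far wider than the spread in either group. The means were 8.36 ± 0.56 FPKM in si-circCpsf6 and 14.4 ± 0.50 FPKM in si-NC (SD, n = 3 each), a ratio of 0.582. On the log2 scale the difference was -0.72 ± 0.12 (SE), with a 95% confidence interval of -0.99 to -0.44 (limma, Benjamini-Hochberg adjusted p = 0.0365). It was the only 1 of the 9 tested members past the test. Among 12974 tested genes 102 were called lower (0.786%) and 117 higher (0.902%). Of the genes called lower, 9 changed by no more than Opa1, with Opa1 itself counted. Opa1 had 1 of the smallest spreads: its within-group SD on the log2 scale was 0.070, and 2.92% of tested genes had one as small.

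The call on Opa1 needed all 6 libraries, although the size of its change did not. Its limma adjusted p was 0.0573, 0.0808 and 0.0981 without si-circCpsf6 replicates 1, 2 and 3, and 0.113, 0.0949 and 0.176 without si-NC replicates 1, 2 and 3. It was 0.0869 with no filter on low values. The log2 fold change stayed between -0.77 and -0.67 in all 14 alternatives. The authors' deposited table gives Opa1 a fold change of 0.58 and a q-value of 0.01, and marks it as not significant.

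Mfn1 and Mfn2, which encode the outer membrane mitofusins, had log2 fold changes of opposite sign, and neither passed the test. Mfn1 (chr3:32529465-32579239) read 9.59, 8.5 and 9.56 FPKM in si-circCpsf6 and 7.2, 6.71 and 6.26 FPKM in si-NC. Its groups did not overlap, and its log2 fold change was 0.40 (95% confidence interval 0.11 to 0.69, unadjusted p = 0.0128, limma adjusted p = 0.134). Mfn2 (chr4:147873599-147904704) read 27.95, 33.21 and 20.64 FPKM in si-circCpsf6 and 33.01, 33.54 and 35.15 FPKM in si-NC. One si-circCpsf6 value lay inside the narrow si-NC range, and the log2 fold change was -0.33 (-0.74 to 0.09, limma adjusted p = 0.353). Leaving out si-circCpsf6 replicate 3 gave -0.15, and leaving out si-circCpsf6 replicate 2 gave -0.48. Mfn2 was the more abundant mitofusin in every library. The FPKM of Mfn1 divided by that of Mfn2 was 0.343, 0.256 and 0.463 in si-circCpsf6 and 0.218, 0.200 and 0.178 in si-NC. Every si-circCpsf6 ratio was above every si-NC ratio, and the log2 ratio of FPKM + 1 was higher by 0.73 (two-sided exact permutation p = 0.1, the smallest possible, and 0.2 after Benjamini-Hochberg adjustment over the 3 ratios tested).

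Oma1, the protease (chr4:103313812-103371868), was the scarcest of the 10 genes in both groups. It read 0.68, 1.11 and 1.12 FPKM in si-circCpsf6 and 1.88, 1.23 and 1.12 FPKM in si-NC, with a log2 fold change of -0.29 (95% confidence interval -0.74 to 0.17, limma adjusted p = 0.463). At this level the log2(FPKM + 1) scale understates any change: with a pseudocount of 0.1 the value was -0.49. Without si-NC replicate 1 it was -0.15, and without si-circCpsf6 replicate 1 it was -0.18. Opa1 stood at 9.12 ± 2.93 times Oma1 in si-circCpsf6 and 10.7 ± 2.88 times in si-NC, with overlapping groups. The two-sided exact permutation p of the log2 ratio of FPKM + 1 was 0.2. With a pseudocount of 0.1 that p was 0.4.

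**Figure D2:**
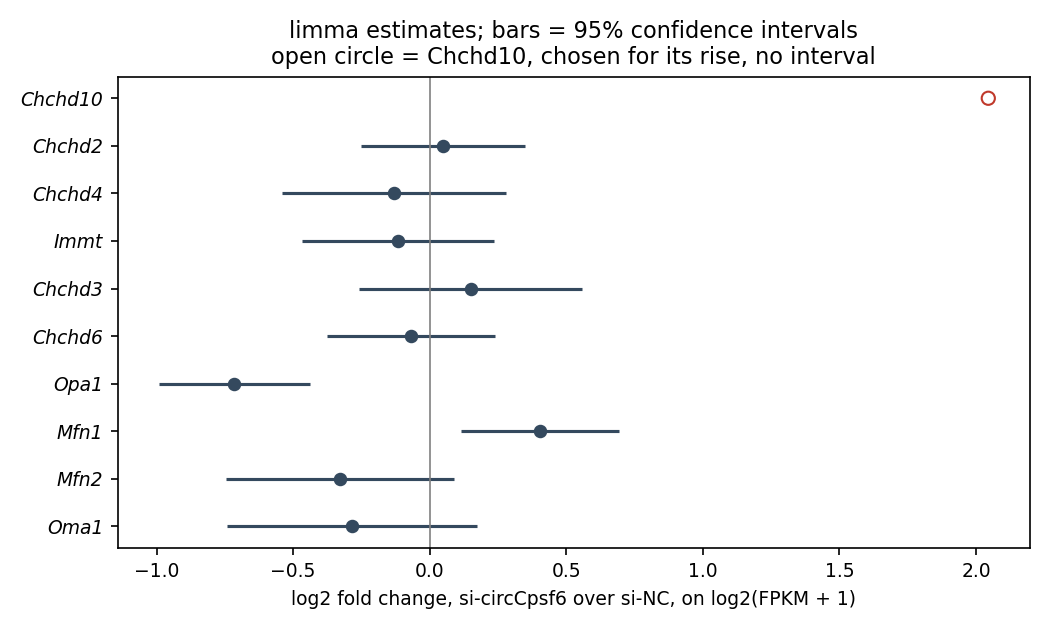
Log2 fold change of si-circCpsf6 over si-NC for each gene, with 95% confidence intervals from limma as bars and Chchd10 as an open circle without one. The intervals of Opa1 (-0.99 to -0.44) and Mfn1 (0.11 to 0.69) leave out 0, and those of the other 7 tested genes span it.

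Of the 9 members other than Chchd10, 3 had a log2 fold change above 0 and 6 below, with a median of -0.12, against a median of -0.02 over all tested genes. All 3 si-circCpsf6 values were above all 3 si-NC values in 1 of the 9 (Mfn1), as in 12.8% of tested genes, and below in 1 (Opa1), as in 14.0% of tested genes. These shares of the members are near the background. For the 7 whose groups overlapped, the 95% confidence intervals all spanned 0, the lowest bound being -0.74 (Mfn2) and the highest 0.56 (Chchd3). In si-circCpsf6 the members ranked by mean FPKM as Chchd10, Chchd2, Chchd3, Mfn2, Immt, Mfn1, Opa1, Chchd6, Chchd4 and Oma1. Libraries of Immt and Mfn1, of Mfn1 and Opa1, and of Opa1 and Chchd6 overlapped, so their order is not set beyond the spread. In si-NC the order was Chchd2, Chchd3, Mfn2, Chchd10, Opa1, Immt, Chchd6, Mfn1, Chchd4 and Oma1. There the 4 overlapping neighbours were Chchd3 with Mfn2, Mfn2 with Chchd10, Chchd10 with Opa1, and Mfn1 with Chchd4. Opa1 was above Immt in every si-NC library, while in si-circCpsf6 its mean was below that of Immt and also below that of Mfn1.

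**Figure D3:**
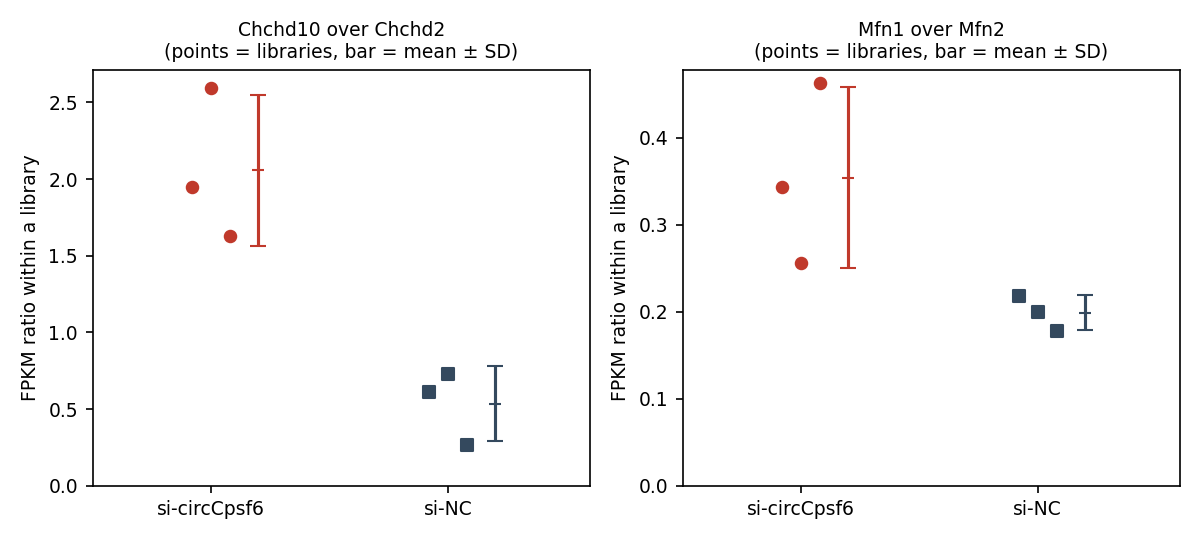
FPKM ratios within a library for Chchd10 over Chchd2 (left) and Mfn1 over Mfn2 (right), with points for libraries and bars for the mean ± SD of each group. The ratios of Chchd10 over Chchd2 are 1.63 to 2.59 in si-circCpsf6 and 0.263 to 0.731 in si-NC, and those of Mfn1 over Mfn2 are 0.256 to 0.463 in si-circCpsf6 and 0.178 to 0.218 in si-NC.

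The heptamer GCAGAAT, which earlier work on these same values had found to be frequent in 3' untranslated regions (UTRs) of genes that were lower in si-circCpsf6, was looked up in the members. It stood in the longest annotated 3' UTR of 1 of 10 members, Mfn2, and in 10.2% of 10630 tested genes. Opa1, the member called lower, had none in its 3' UTR of 3141 bases and 1 in its coding sequence. The median log2 fold change was -0.13 for genes with the heptamer in the 3' UTR and -0.01 for genes without it, values from the genes on which it was found. Among the members the 3' UTR ran from 153 bases (Chchd10) to 3141 bases (Opa1), and its median over the 10630 genes was 1174 bases. Neither the shares nor the medians were adjusted for this length. Only 1 transcript per gene was searched, the one with the longest 3' UTR, so sites in other transcripts could be missed. Both sites found in the members are shown 5′ to 3′ on the transcript from GENCODE, with the heptamer in capitals.

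Mfn2, 3' UTR, chr4:147875094-147875122, minus strand: aatggcaccctGCAGAATgactgatgggc
Opa1, coding sequence, chr16:29611605-29611633, plus strand: aaagcttacatGCAGAATcctaacgccat

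Other genes of the same machinery were read in 9 lists of 90 genes, of which 84 had a mean of at least 1 FPKM. Of the 84, 1 was called higher and none lower by limma, against 0.902% and 0.786% of all tested genes. An unadjusted limma p under 0.05 was met by 13 of the 84. Over all 12974 tested genes it was met by 2633, a larger share. The 9 genes for the remaining MICOS subunits and for the outer membrane proteins that bridge to them had a median log2 fold change of -0.08, with 7 of 9 below 0. Apool, which encodes the MICOS subunit MIC27 that binds cardiolipin, read 2.51, 2.76 and 3.02 FPKM in si-circCpsf6 and 5.12, 4.85 and 4.47 FPKM in si-NC (log2 fold change -0.63, limma adjusted p = 0.0642). Mtx3, a metaxin of the outer membrane, averaged 6.02 ± 0.42 FPKM in si-circCpsf6 and 8.74 ± 0.88 FPKM in si-NC (limma adjusted p = 0.109). Micos10 and Samm50 averaged 28.0 and 18.2 FPKM in si-circCpsf6 and 29.3 and 17.8 FPKM in si-NC.

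The other genes with twin CX9C motifs, the cysteine pattern that CHCHD proteins share, centred on 0: 9 of 14 tested were above it and the median was 0.03. Their neighbours in name, Chchd1 and Chchd5, averaged 23.5 and 6.35 FPKM in si-circCpsf6 and 22.9 and 4.90 FPKM in si-NC. Coa6, an assembly factor of cytochrome c oxidase, averaged 9.03 ± 0.25 FPKM in si-circCpsf6 and 12.2 ± 0.76 FPKM in si-NC (limma adjusted p = 0.123), and Cmc1, of the same assembly pathway, 11.7 ± 1.13 FPKM in si-circCpsf6 and 7.87 ± 3.13 FPKM in si-NC (limma adjusted p = 0.233). The 8 intermembrane space import genes were all below 0, with a median of -0.24 and none past the test. Of these Timm8a1, a small carrier chaperone, averaged 15.7 ± 3.05 FPKM in si-circCpsf6 and 23.8 ± 2.60 FPKM in si-NC (limma adjusted p = 0.123). Gfer, the oxidase that recharges CHCHD4, averaged 7.39 ± 1.94 FPKM in si-circCpsf6 and 10.03 ± 1.47 FPKM in si-NC (limma adjusted p = 0.307).

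Fission genes, which act against the mitofusins, had 5 of 9 above 0 and a median of 0.20, with none past the test. Dnm1l, the fission GTPase DRP1, averaged 29.1 FPKM in si-circCpsf6 and 31.7 FPKM in si-NC. Its receptor genes Mief2 and Mff averaged 2.95 ± 0.40 and 8.68 ± 0.80 FPKM in si-circCpsf6 and 1.65 ± 0.86 and 7.44 ± 0.29 FPKM in si-NC (limma adjusted p = 0.203 and 0.430). Of 10 inner membrane protease and prohibitin genes, 8 were below 0 and none passed. Yme1l1, the other protease that cleaves OPA1, averaged 17.8 FPKM in si-circCpsf6 and 18.5 FPKM in si-NC. Lonp1, the matrix protease, read 71.97, 146.75 and 86.79 FPKM in si-circCpsf6 and 45.38, 73.32 and 36.32 FPKM in si-NC, with overlapping groups (limma adjusted p = 0.164). Phb2, a prohibitin that stabilises long OPA1, averaged 32.1 ± 3.52 FPKM in si-circCpsf6 and 39.5 ± 2.86 FPKM in si-NC (limma adjusted p = 0.275). All 6 tested cardiolipin genes were below 0 (median -0.20, none past the test), among them Tamm41, which makes CDP-diacylglycerol in mitochondria, at 3.12 ± 0.13 FPKM in si-circCpsf6 and 4.31 ± 0.92 FPKM in si-NC (limma adjusted p = 0.291), and Pgs1 (limma adjusted p = 0.457).

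The list of the OMA1-DELE1 relay and the stress genes downstream of it held the gene that passed. Gdf15, a secreted stress hormone, read 9.9, 9.84 and 10.97 FPKM in si-circCpsf6 and 3.75, 3.28 and 1.84 FPKM in si-NC. It rose in si-circCpsf6, with a log2 fold change of 1.54 ± 0.20 (SE, limma adjusted p = 0.0284). Its limma adjusted p was 0.0517, 0.0649 and 0.0900 without si-circCpsf6 replicates 1, 2 and 3, 0.0526, 0.0639 and 0.0699 without si-NC replicates 1, 2 and 3, and 0.0886 with no filter. For the relay itself, the log2 fold change was -0.01 for Dele1 and -0.14 for Eif2ak1 (limma adjusted p = 0.978 and 0.594). The median of the 11 tested genes was 0.54, against -0.02 over all tested genes, with 7 above 0. Earlier results on these values had shown ATF4 targets to be higher, so the list is no independent support. Ddit3, which encodes the ATF partner CHOP, averaged 67.3 ± 11.5 FPKM in si-circCpsf6 and 30.9 ± 10.2 FPKM in si-NC (limma adjusted p = 0.0757), and Atf4 298 ± 102 FPKM in si-circCpsf6 and 185 ± 84.7 FPKM in si-NC (limma adjusted p = 0.335).

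Regulators of mitochondrial biogenesis had a median of -0.02 over 9 tested genes. Ppargc1b, a co-activator of mitochondrial genes, averaged 2.27 ± 0.25 FPKM in si-circCpsf6 and 1.22 ± 0.19 FPKM in si-NC (limma adjusted p = 0.112). Tfb2m, a mitochondrial transcription factor, averaged 8.03 ± 0.62 FPKM in si-circCpsf6 and 10.5 ± 0.42 FPKM in si-NC (limma adjusted p = 0.172). Nrf1 averaged 2.41 FPKM in si-circCpsf6 and 2.09 FPKM in si-NC (limma adjusted p = 0.618). Of 8 tested genes of mitophagy and mitofusin turnover 6 were below 0, with a median of -0.20 and none past the test. The mitophagy receptor Fundc1 averaged 5.48 ± 0.66 FPKM in si-circCpsf6 and 7.06 ± 0.51 FPKM in si-NC (limma adjusted p = 0.243), and the receptor Bnip3 12.3 ± 3.62 FPKM in si-circCpsf6 and 16.5 ± 6.18 FPKM in si-NC (limma adjusted p = 0.506). Mul1 and March5, ubiquitin ligases of the outer membrane, averaged 4.43 and 25.5 FPKM in si-circCpsf6 and 5.51 and 29.0 FPKM in si-NC.

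**Figure D4:**
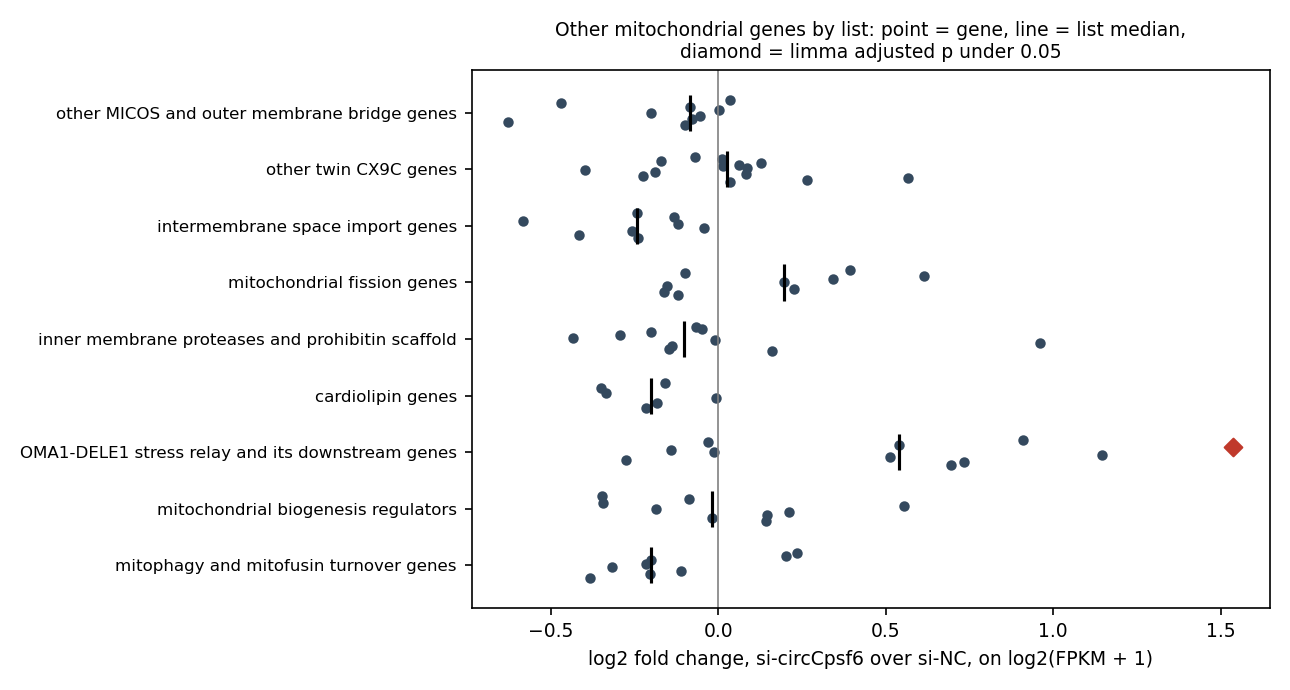
Log2 fold change of si-circCpsf6 over si-NC for the 84 tested genes of the 9 lists, with a point per gene, a line at each list's median and a diamond for the gene past the test. The diamond is Gdf15 at 1.54, and list medians run from -0.24 (intermembrane space import) to 0.54 (OMA1-DELE1 relay and downstream genes).

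The profile of Chchd10 over the 6 libraries was set against that of each tested gene, as the root mean square difference of log2(FPKM + 1) after each gene's mean was taken off. The 5 nearest genes were Ptgs1 (0.239), Cyb5r1 (0.249), Deptor (0.311), Wwtr1 (0.324) and Tnfaip2 (0.334), where the median over tested genes was 1.14. They encode a cyclooxygenase, a cytochrome b5 reductase, an mTOR inhibitor, the co-activator TAZ and a TNF-inducible protein. Each had all si-circCpsf6 values above all si-NC values and its lowest value in si-NC replicate 3, as Chchd10 did. These shared traits largely follow from picking the genes by nearness to the Chchd10 profile, and are a description only. Cyb5r1, for instance, read 31.07, 52.77 and 25.68 FPKM in si-circCpsf6 and 14.86, 15.42 and 4.69 FPKM in si-NC. Among the members the nearest was Mfn1 (0.928) and the farthest Opa1 (1.46). Of the members other than Chchd10, these also had the highest and the lowest log2 fold change (0.40 and -0.72).

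**Figure D5:**
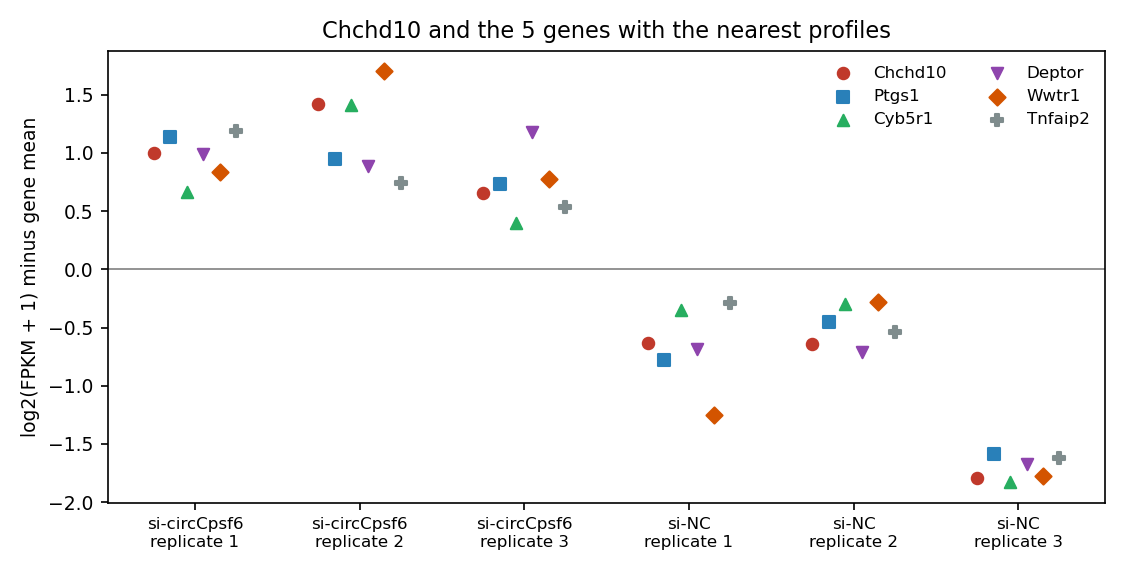
Log2(FPKM + 1) minus each gene's own mean in the 6 libraries, for Chchd10 and the 5 tested genes with the nearest profiles. All 6 genes lie above 0 in the si-circCpsf6 libraries and below 0 in the si-NC libraries, lowest in si-NC replicate 3. The 5 genes were picked for nearness to Chchd10, which largely sets this shared pattern.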

How the data were processed

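For each gene and library the authors deposited an FPKM value to 2 decimals, and beside it their fold change as a ratio, its log2, a p-value and a q-value, per the file headers. No source used here names the program that made FPKM or the test behind those p-values. The submitters' processing notes list Bowtie 0.12.2 together with mm8 and mm9, without saying what each was used for. Per the labels' protocols, RNA came from Trizol extraction and libraries from a small RNA kit.

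GENCODE M21 (GRCm38) gave positions, gene classes and transcripts and held 55144 of the identifiers. limma 3.58.1 (R 4.3.3) compared the groups on log2(FPKM + 1), with an intensity trend and no covariate, over the 12974 genes averaging 1 FPKM or more. Benjamini-Hochberg adjustment ran over all of them (threshold 0.05). The fit was checked on simulated data with independent noise for each gene and library. That check held no effect shared by replicate number, so it cannot speak to one. Printed ratios are of FPKM. Their exact permutation tests (scipy 1.17.1) used the log2 ratio of FPKM + 1. The members and gene lists were chosen with earlier results of these data known. Named genes were the members, up to 4 genes per list past the test or otherwise up to 2 with the smallest p, genes that overlap a member or carry its name as a pseudogene, genes within 50 kb of Chchd10, and the 5 nearest profiles. Other list genes and the markers were singled out with their values in view. The 14 alternatives changed the scaling (median centring or quantiles), the pseudocount (0.1), the filter (none, or a mean of 5 FPKM), the trend (none), the block (replicate number), the genes (protein-coding alone) or left out 1 library.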

Additional observations from a re-analysis of the deposited data

How the results depend on the processing

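The counts of calls depended on the genes tested and on the libraries. With no filter on low values 4 genes were called higher and 9 lower, and with protein-coding genes alone 240 and 189, against 117 and 102. With 1 library left out, 1 to 43 genes were called higher and 2 to 44 lower. Of the members other than Chchd10, 1 passed (Opa1), and 0 passed with no filter and 0 in each of the 6 fits with a library left out. Of the other pathway genes, 1 passed (Gdf15), 2 with protein-coding genes alone (Gdf15 and Apool, limma adjusted p = 0.0433), and 0 with no filter or with any library left out. Fewer or more genes tested change the adjustment by construction.

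The labels tie same-numbered libraries by the number alone, and whether they share an origin is unknown. The correlations of their deviations from the group means were 0.103, 0.129 and 0.0840. Every library correlated best with its own number, a hint from the data and not from the design. With the replicate block, 6 genes were called higher and 5 lower, 0 members other than Chchd10 passed (Opa1, limma adjusted p = 0.0750), and 0 pathway genes passed (Gdf15, 0.0615).

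Signs turned for uncalled members near 0: with 1 library left out, the log2 fold change of Immt ran from -0.218 to 0.0172 (without si-circCpsf6 replicate 1), of Chchd6 from -0.134 to 0.00496 (without si-NC replicate 1), and of Chchd2 from -0.0383 (without si-NC replicate 2) to 0.0937. The cause was not tested. The Chchd10 log2 fold change ran from 1.66 (without si-NC replicate 3) to 2.24, and the 3 tested ratios kept their direction in every alternative run on them. Counting error is unknown for all values, most of all for Oma1.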

Other observations

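Some genes of the lists lay under the tested level and are given as values. Fgf21, a stress hormone like Gdf15, read 0.31, 1.23 and 0.18 FPKM in si-circCpsf6 and 0.06, 0.05 and 0 FPKM in si-NC. Chchd7 averaged 0.763 FPKM in si-circCpsf6 and 0.553 FPKM in si-NC. Ppargc1a, the gene of the co-activator PGC-1alpha, had a mean of 0.003 FPKM in si-circCpsf6 and was listed at 0 in si-NC.

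A pair of marker genes, singled out after their values were seen, followed the replicate number more than the group. Lyz2, a macrophage lysozyme, read 7.47, 0.09 and 1.32 FPKM in si-circCpsf6 replicates 1 to 3 and 8.92, 0.15 and 1.84 FPKM in si-NC replicates 1 to 3. Col1a1, a fibroblast collagen, read 3.69, 0.16 and 1.13 FPKM in si-circCpsf6 and 4.53, 0.13 and 0.86 FPKM in si-NC. In both genes replicate 1 was highest and replicate 2 lowest in each group, although the labels name no batch.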
